A study of Homo sapiens with 8 samples.

Results

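The 5 genes described here make amino acids: ALDH18A1 and PYCR1 (proline), GPT2 (alanine), GOT1 (aspartate) and CTH (cysteine). Their members in the data are all listed ATF4 peaks with at least 1 base within 5 kb of the transcription start site (TSS). The start sites in the hg19 build are chr10:97416463, chr17:79895172, chr16:46918308, chr10:101190530 and chr1:70876926 in that order. Over 8 peak lists with 312662 peaks, 39 peaks met this rule, and they merged into 6 of the 132657 regions of the series. Each of the 5 promoters held 1 region, and the sixth region lay downstream of the CTH start site.

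The lists come from chromatin immunoprecipitation with 5 ug of an ATF4 antibody in Nalm6 and SUPB15, established cell lines of acute lymphoblastic leukaemia. Cells of each line were either left untreated or given L-asparaginase (1 IU/ml, 2 h), an enzyme drug that destroys asparagine, and each of the 4 groups has 2 libraries. The design text calls the Nalm6 experiments independent, and a further one it mentions per condition was not used here. Whether the SUPB15 libraries are separate cultures is not stated, so the spread between them may be technical. Peak lists hold no expression values, so the identity of the lines was not checked against markers.

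ATF4 is the transcription factor of the integrated stress response. When amino acids run short, uncharged tRNAs activate the kinase GCN2, general translation slows, and ATF4 protein accumulates. It pairs with C/EBP proteins on composite elements and turns on genes for amino acid synthesis and import. Cells starved of asparagine meet this programme, and proline, alanine, aspartate and cysteine synthesis are among its known branches.

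In Nalm6 a list held 34825 to 48984 peaks. The untreated SUPB15 lists were much shorter, at 9575 and 9586 peaks, than the lists of drug-treated SUPB15, at 88302 and 41213. Genome background, the fragments expected at a peak-free position and used here as relative depth, was 2.21 to 2.97 in Nalm6 and 3.90 to 4.19 in SUPB15. Levels below are relative pileups: the fragments stacked at the peak summit plus 1, divided by this background. The median over all listed peaks of a library was 5.25 to 6.62 in SUPB15 and 9.76 to 12.2 in Nalm6.

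All 4 Nalm6 libraries had a peak at all 5 promoters. In SUPB15 both asparaginase libraries had all 5, untreated replicate 1 lacked ALDH18A1, and untreated replicate 2 lacked ALDH18A1 and CTH. PYCR1, GPT2 and GOT1 were therefore listed in all 8 libraries. That is 3 of the 6 regions, and over the series 2.87% of the regions were listed in all 8. Within Nalm6, 5 of the 6 regions were listed in all 4 libraries (background 44.1% of regions), and within SUPB15 3 of 6 were (background 4.63%). The background counts all regions of the genome. How often other promoters were listed was not analysed here, so whether these shares are particular to the 5 genes is not known.

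**Figure D1:**
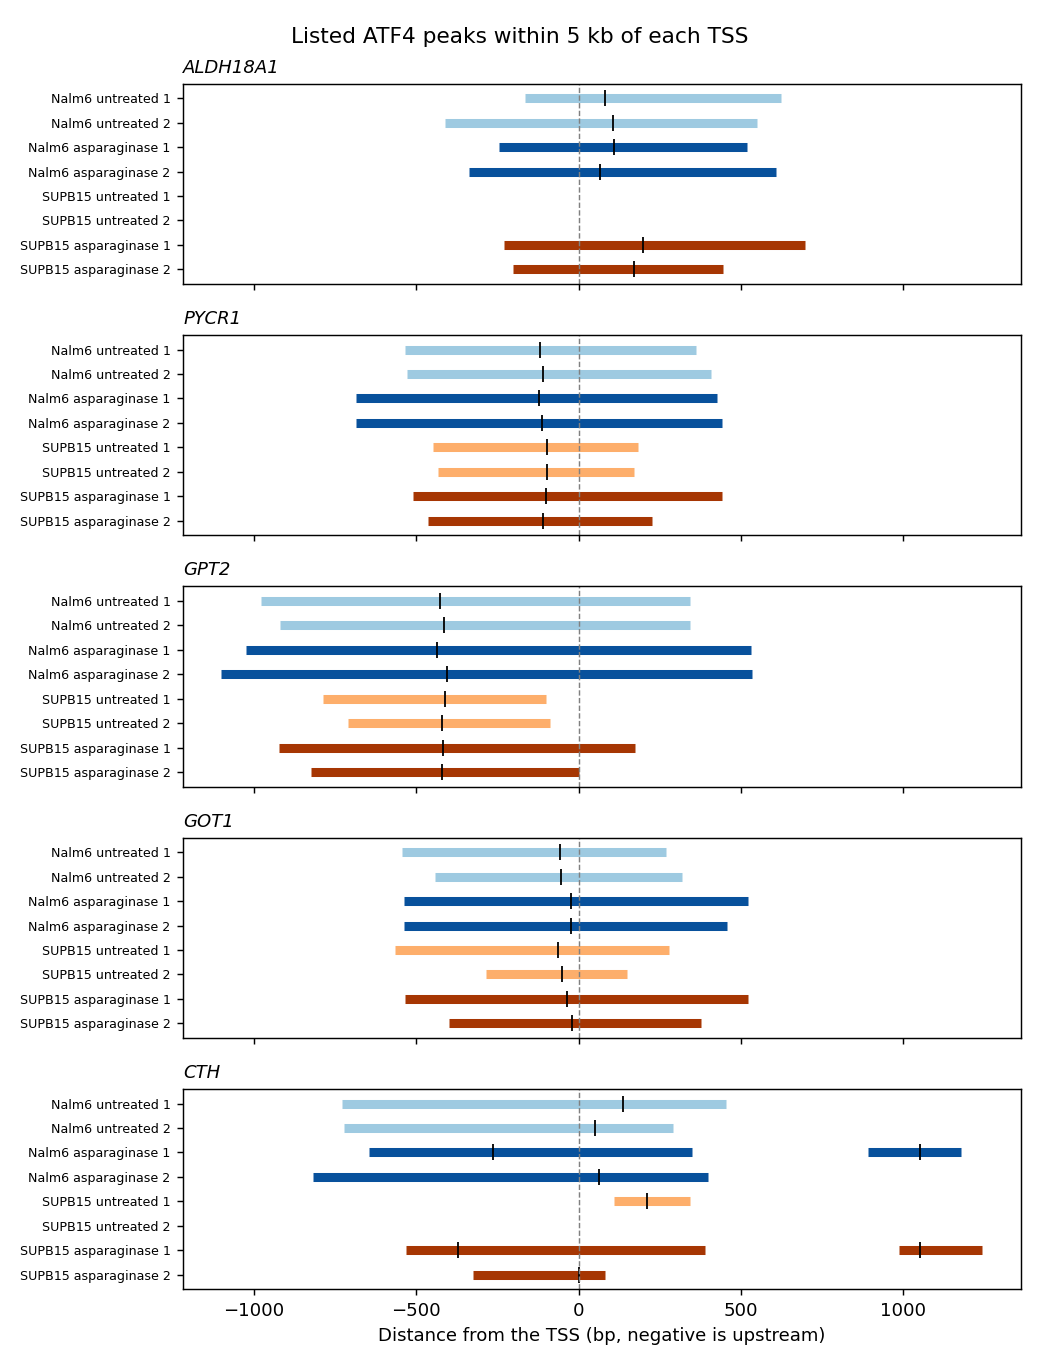
Listed ATF4 peaks around the 5 start sites. The horizontal axis is the distance from the hg19 start site in the direction of transcription (bp), each bar is 1 peak of 1 library, and the black tick is its summit. Summits at PYCR1, GPT2 and GOT1 line up over all 8 libraries, within 25, 31 and 43 bp, while those at CTH spread over 580 bp and ALDH18A1 has no bar in untreated SUPB15.

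The 3 promoters listed everywhere had narrow summit positions. PYCR1 summits lay 97 to 122 bp upstream of the start site, GPT2 summits 404 to 435 bp upstream and GOT1 summits 20 to 63 bp upstream. ALDH18A1 summits lay 65 to 197 bp downstream. At CTH the summit of the promoter peak ranged from 370 bp upstream to 210 bp downstream.

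ALDH18A1, the enzyme that opens proline synthesis by turning glutamate into pyrroline-5-carboxylate, had a moderate promoter peak in Nalm6 (chr10:97415841-97416873). Relative pileup was 16.8 and 17.9 in the untreated and 17.2 and 23.6 in the asparaginase libraries of Nalm6. The groups overlap, because asparaginase replicate 1 lies between the untreated values. Fold enrichment (summit over local background, a ratio that the authors deposited) was 7.18 and 7.58 without and 6.67 and 8.73 with the drug. In the asparaginase lists these peaks ranked 11199 of 43376 and 5832 of 48984 by that ratio. The limma change of summit pileup relative to the median region was -0.15 ± 0.21 (SE) on the log2 scale (adjusted p = 0.622).

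In SUPB15 the ALDH18A1 peak was listed with asparaginase only, with relative pileups of 8.11 and 6.87, fold enrichments of 4 and 4.08 and −log10 q of 8.89 and 6.97. It was the single gained region among the 6, gained meaning a peak in both asparaginase lists and in neither untreated list. In SUPB15 16.7% of all regions were gained, so 1 of 6 is near the background. In Nalm6 none of the 6 was gained, against 12.3% of all regions. The untreated SUPB15 lists named peaks from 3.68 and 3.59 times genome background upwards where the local background was at its lowest. A weaker signal at ALDH18A1 is therefore not measured, and its absence from a list is not a level of 0. With only peaks of −log10 q of at least 10, or with equally long lists, ALDH18A1 was no longer gained.

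The 250 bases upstream of the RefSeq start site of ALDH18A1 are shown because the searched promoter window lacks the ATF4 composite element TGATGNAA on both strands. That window ends 50 bases after the start site. Sequence further downstream, where the peak summits may lie, was not searched. Capitals mark TGACGT, the first letters of the cyclic AMP response element, on either strand. That shorter motif was searched for after the sequences had been seen. The sequence is chr10:95656712-95656961 of GRCh38.p14, minus strand, from RefSeq. The hg19 start site used for the peaks comes from another annotation, so positions in this window are not carried over to the peaks.
ALDH18A1: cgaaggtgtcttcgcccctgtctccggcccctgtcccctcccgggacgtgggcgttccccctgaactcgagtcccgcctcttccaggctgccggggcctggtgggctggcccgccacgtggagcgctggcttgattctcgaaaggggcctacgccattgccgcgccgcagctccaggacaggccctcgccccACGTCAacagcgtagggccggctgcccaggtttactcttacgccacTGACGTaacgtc

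Both marked matches, at -58 and -12 from the RefSeq start, are of a motif that 7.98% of 35116 RefSeq promoter windows hold. These windows run from 250 bases before to 50 bases after a start site, and a further match of ALDH18A1, which overlaps the one at -12 in no base, ends 1 base past the printed stretch. A match of letters is a description and not a bound site.

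PYCR1, which reduces pyrroline-5-carboxylate to proline in mitochondria, carried one of the strongest ATF4 peaks of every library (chr17:79894731-79895856 in Nalm6). By summit pileup it ranked between 24 and 42 in each of the 8 lists. Summit pileup was 310 and 347 fragments in untreated Nalm6 and 385 and 391 with asparaginase, or 105, 125, 175 and 168 times genome background. In SUPB15 relative pileup was 58.8 and 51.8 without and 90.9 and 88.4 with the drug. Every asparaginase value lies above the untreated values of its line.

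Most regions rose on this uncentred scale. Among regions listed in all 4 libraries, the median asparaginase-to-untreated ratio was 1.29 in Nalm6 and 1.54 in SUPB15, a shift of 0.37 and 0.62 on the log2 scale. Both asparaginase values exceeded both untreated ones at 60.4% of the regions in Nalm6 and at 68.1% in SUPB15, beside 3 of 5 and 3 of 3 at the 5 promoters. The limma changes below are relative to that median shift, with Benjamini-Hochberg adjustment over all regions tested and a threshold of 0.05. Relative to it, PYCR1 had a change of 0.22 ± 0.16 (SE) in Nalm6 (adjusted p = 0.309) and of 0.08 ± 0.15 in SUPB15 (adjusted p = 0.664), both short of the threshold. Without centring on the median they were 0.59 and 0.70 (adjusted p = 0.00110 and 1.69e-05).

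GPT2, the mitochondrial alanine aminotransferase that makes alanine from pyruvate and glutamate, had the highest summit pileup of the 5 in Nalm6 with asparaginase (chr16:46917208-46918843). Its relative pileup was 108 and 126 in untreated Nalm6 and 182 and 172 with asparaginase. In SUPB15 it was 49.0 and 40.01 without and 92.6 and 91.2 with the drug, and the groups do not overlap in either line. In Nalm6 asparaginase replicate 1 no peak of the 43376 had a higher summit pileup, but GPT2 was 1 of 4 peaks tied at 400 fragments. In replicate 2 GPT2 ranked 10, below 9 peaks at 400. By fold enrichment the GPT2 peaks ranked 2788 of 43376 and 4447 of 48984, and by −log10 p 77 and 196. On both of these measures PYCR1 was above GPT2 in these libraries, with −log10 p of 310.1 and 299.9 against 261 and 242. In the untreated lists it ranked 33 and 17 (Nalm6), and 60 and 76 (SUPB15) by pileup.

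The limma change of GPT2 relative to the median region was 0.43 ± 0.16 (SE) in SUPB15 (adjusted p = 0.0363), which passed the threshold. In Nalm6 it was 0.23 ± 0.16 (adjusted p = 0.275). The SUPB15 call was lost when any of the 4 libraries was left out, with changes of 0.27 to 0.54 and adjusted p of 0.100 to 0.569. It was also lost without limma's trend (adjusted p = 0.214). The direction turned on the fold enrichment scale (-0.15, adjusted p = 0.399) and among regions of −log10 q of at least 10 in all 4 libraries (-0.039, adjusted p = 0.869). In Nalm6 the GPT2 change was 0.19 and 0.26 without untreated replicate 1 and 2, and 0.14 and 0.31 without asparaginase replicate 1 and 2. PYCR1 had 0.16, 0.26, 0.14 and 0.29 in the same fits. Each of these fits leaves 1 library in a group. Whether the 2 sites passed the threshold in them depended on the group that lost a library, and the cause was not tested.

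**Figure D2:**
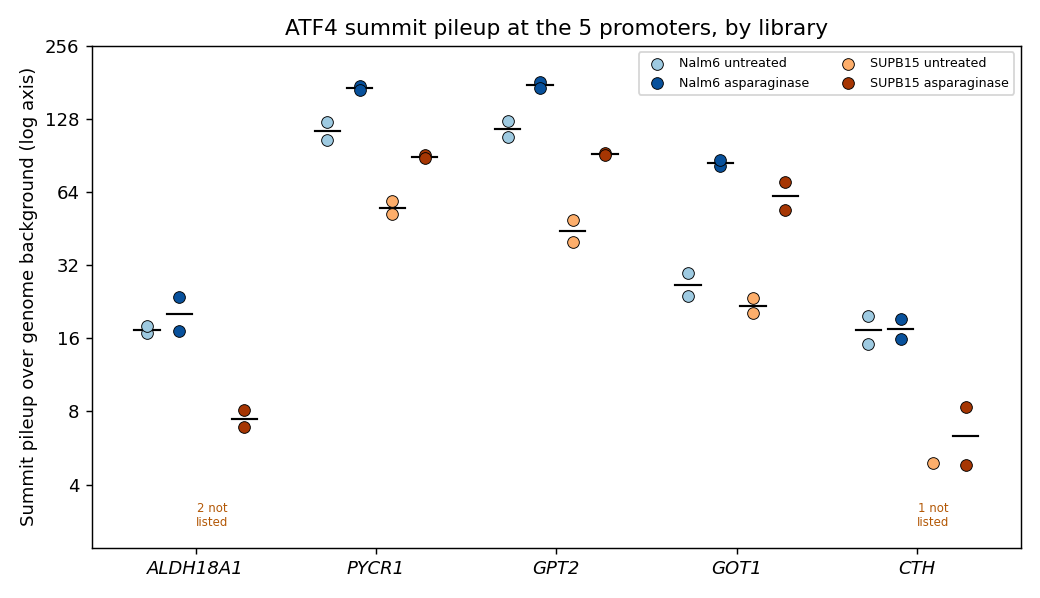
Summit pileup relative to genome background at the 5 promoters. Each point is 1 library, black lines are geometric means of 2 libraries, and the vertical axis is logarithmic. PYCR1 and GPT2 have the highest levels in every group, GOT1 shows separate untreated and asparaginase libraries in both lines, and ALDH18A1 and CTH are the lowest in both lines. GPT2 and PYCR1 with asparaginase are near the highest pileup of any list.

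GPT2 and PYCR1 lay close to the highest summit pileup that any list holds. Over all 312662 peaks the pileup ended at 400 fragments, a value reached by 17 peaks and passed by none. GPT2 in Nalm6 had 319 and 351 fragments without and 400 and 399 with asparaginase. In SUPB15 it had 199 and 155 without and 387 and 357 with the drug. PYCR1 reached 380 and 346 in SUPB15 with asparaginase. A site at this upper end has no room for a higher summit value in these lists. Whether duplicate reads were removed, which would also hold down high pileups below 400, is not stated. How far either limited the levels and changes of GPT2 and PYCR1 was not tested.

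The local background that the peak caller used, a value for the wider surroundings of the summit, was also higher with asparaginase at these sites in Nalm6. Whether a control library was used is not stated, so this value may include reads of the peak itself. Whether its rise is separate from that of the peak was not tested. At GPT2 it was 7.20 and 8.49 times genome background in untreated Nalm6 and 16.5 and 17.6 times with asparaginase. At PYCR1 it went from 5.98 and 7.08 to 10.9 and 11.5. At GOT1 it went from 1.86 and 1.96 to 4.77 and 4.99. In a comparison of this quantity, chosen after the upper end of the pileup had been seen, 3 of 5 promoters were higher in Nalm6 (limma, background 13.9% of regions). The log2 changes were 0.93 for GPT2 (adjusted p = 0.0223), 0.59 for PYCR1 (adjusted p = 0.0486) and 1.16 for GOT1 (adjusted p = 0.00916). In SUPB15 none of the 3 promoters was called on this quantity, with changes of 0.42 to 0.55 (limma, adjusted p = 0.233 to 0.290; unadjusted p = 0.0443 at GPT2, 0.0713 at GOT1 and 0.0905 at PYCR1), beside 0.0839% of regions called higher and 7.81% lower.

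This background is the denominator of the deposited fold enrichment, and in Nalm6 that ratio was lower with asparaginase at both sites. At GPT2 in Nalm6 fold enrichment was 14.3 in both untreated lists and 10.7 and 9.54 with asparaginase, although more fragments were stacked at the summit. At PYCR1 in Nalm6 it was 16.6 and 16.8 without and 15.4 and 14.1 with asparaginase. On the log2 fold enrichment scale GPT2 in Nalm6 had a change of -0.64 (limma adjusted p = 0.000833) and PYCR1 one of -0.31 (adjusted p = 0.0197), the opposite of the direction of their pileups. That made 2 of 5 promoters called lower on this scale in Nalm6, beside 4.08% of regions, and 0 called higher, beside 15.2%. The summit pileup in this ratio ends at 400 fragments, and the local background may include reads of the peak itself. How far either affected these ratios was not tested. In SUPB15 the GPT2 ratio was 12.9 and 11.6 without and 13.2 and 16.6 with the drug, and that of PYCR1 was 13.7 and 12.3 against 12.1 and 14.9. Relative to the median region these were changes of -0.15 at GPT2 (limma adjusted p = 0.399) and -0.38 at PYCR1 (adjusted p = 0.0428). The GPT2 peak in Nalm6 was also wider with asparaginase, going from 1320 and 1264 bp to 1554 and 1636 bp. In SUPB15 it went from 686 and 623 bp to 1099 and 827 bp. PYCR1 peaks in both lines and GOT1 peaks in Nalm6 were wider with the drug too. Untreated and treated widths overlapped at GOT1 in SUPB15 and at ALDH18A1 and CTH in Nalm6.

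**Figure D3:**
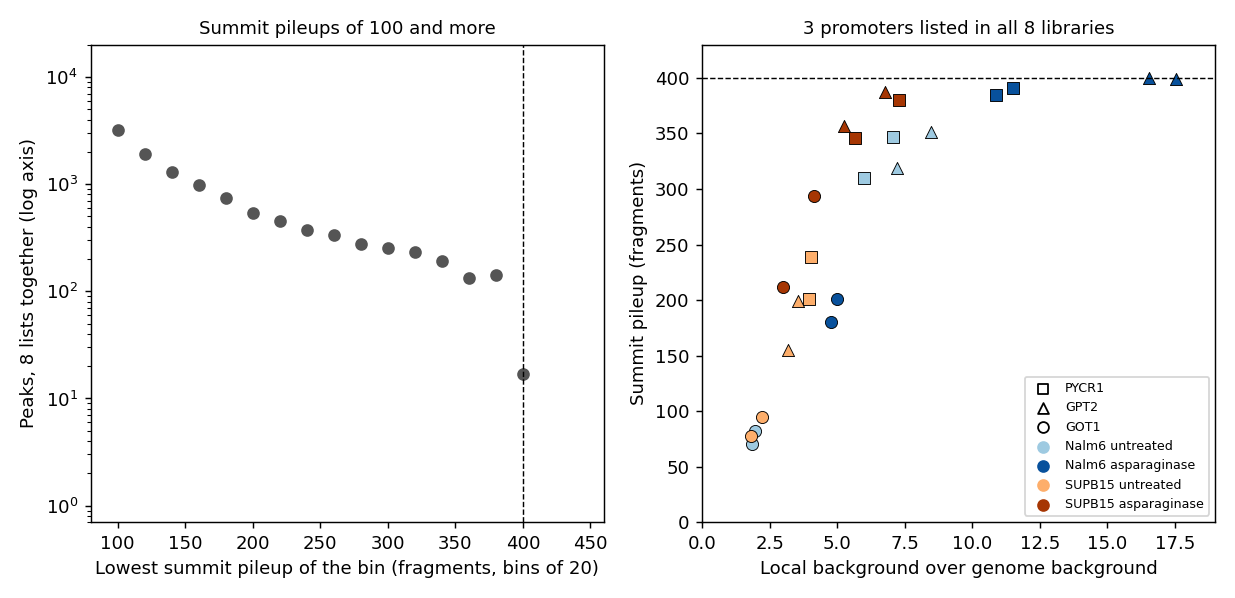
Left, number of peaks of all 8 lists by summit pileup in bins of 20 fragments (logarithmic vertical axis), from 100 upwards. Right, summit pileup against local background over genome background for PYCR1, GPT2 and GOT1 in each library, with a dashed line at 400 fragments. The counts end at 400, and the GPT2 values of Nalm6 with asparaginase sit on that line while their local background is the highest of the plot.

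GOT1, the cytosolic aspartate aminotransferase that exchanges aspartate and glutamate nitrogen, had a larger change of summit pileup with asparaginase than the other promoters tested, 4 in Nalm6 and 2 in SUPB15. Among these, GPT2 and PYCR1 lay near the upper end of the pileup. On local background in SUPB15 GPT2 (0.555) and GOT1 (0.548) had nearly the same change, neither of them called. The promoter is shown because, of the 3 of the 5 genes found in the RefSeq promoter table, it alone holds the ATF4 composite element core. Capitals mark TTGCATCA, which reads TGATGCAA on the other strand. The stretch is chr10:99430625-99430874 of GRCh38.p14, minus strand, the 250 bases upstream of the RefSeq start.
GOT1: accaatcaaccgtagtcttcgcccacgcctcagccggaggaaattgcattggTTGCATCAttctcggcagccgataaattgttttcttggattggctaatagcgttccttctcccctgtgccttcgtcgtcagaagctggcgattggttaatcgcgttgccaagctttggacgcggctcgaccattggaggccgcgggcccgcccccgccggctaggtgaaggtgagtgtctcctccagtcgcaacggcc

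The match spans -198 to -191 of the RefSeq start. The hg19 start site used for the GOT1 peaks comes from another annotation. The distance between the match and the peak summits therefore cannot be read from these positions. TGATGNAA, searched on both strands, occurs in 3.62% of the 35116 promoter windows, and its form TGATGCAA in 0.866%. The full cyclic AMP response element TGACGTCA, in 1.85% of windows, was in none of the 3 promoters. PYCR1 and GPT2 were not in the table.

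At GOT1 in Nalm6 (chr10:101190008-101191073) the summit pileup was 70 and 82 fragments in the untreated and 180 and 201 in the asparaginase libraries. Relative to genome background this was 23.9 and 29.8 against 82.0 and 86.7. In SUPB15 relative pileup was 23.5 and 20.3 without and 70.4 and 54.2 with asparaginase. In both lines the lowest asparaginase value is more than the highest untreated value, and the untreated levels of both lines lie within 20.3 to 29.8.

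Beyond the median shift, GOT1 rose by a log2 change of 1.29 ± 0.17 (SE; 95% interval 0.95 to 1.64) in Nalm6, a factor of 2.45 (limma, adjusted p = 1.70e-11). It was the 1 promoter of 5 called higher there, beside 22.7% of the 25213 regions tested. None of the 5 was called lower, beside 8.64%. GOT1 ranked 1744 of the 25213 by the size of its change, so larger changes were common elsewhere. Without centring 3 of 5 were called higher, beside 38.7% of regions (0.397% lower). The GOT1 call held with each Nalm6 library left out (1.21 to 1.36), and on the fold enrichment scale it was lost (0.29, adjusted p = 0.0689).

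In SUPB15 GOT1 rose by 0.88 ± 0.26 (SE; 95% interval 0.37 to 1.39) beyond the median shift, a factor of 1.84 (limma, adjusted p = 0.00980). Together with GPT2 this made 2 of 3 promoters called higher, beside 20.5% of the 4765 regions tested, and none lower, beside 5.96%. Without centring all 3 were called higher, beside 49.0% of regions (0.0839% lower). On the fold enrichment scale none of the 3 was called higher and PYCR1 was called lower (-0.38, adjusted p = 0.0428), beside 20.02% of regions higher and 11.5% lower. There GOT1 lost its call (0.33, adjusted p = 0.0625) and GPT2 was at -0.15 (adjusted p = 0.399). Among the 1642 regions of −log10 q of at least 10 in all 4 libraries the split was 3.35% higher and 31.3% lower. In that set GOT1 was not called (0.41, adjusted p = 0.243), GPT2 was at -0.039 (adjusted p = 0.869) and PYCR1 was lower (-0.39, adjusted p = 0.0163).

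GOT1 lost its call without untreated replicate 1 (adjusted p = 0.333), untreated replicate 2 (adjusted p = 0.554) or asparaginase replicate 1 (adjusted p = 0.0744). Its change stayed between 0.81 and 0.91. Without untreated replicate 1 only 6 regions of the whole line were called higher and without untreated replicate 2 none, with 585 and 412 regions at an unadjusted p under 0.05 in limma.

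**Figure D4:**
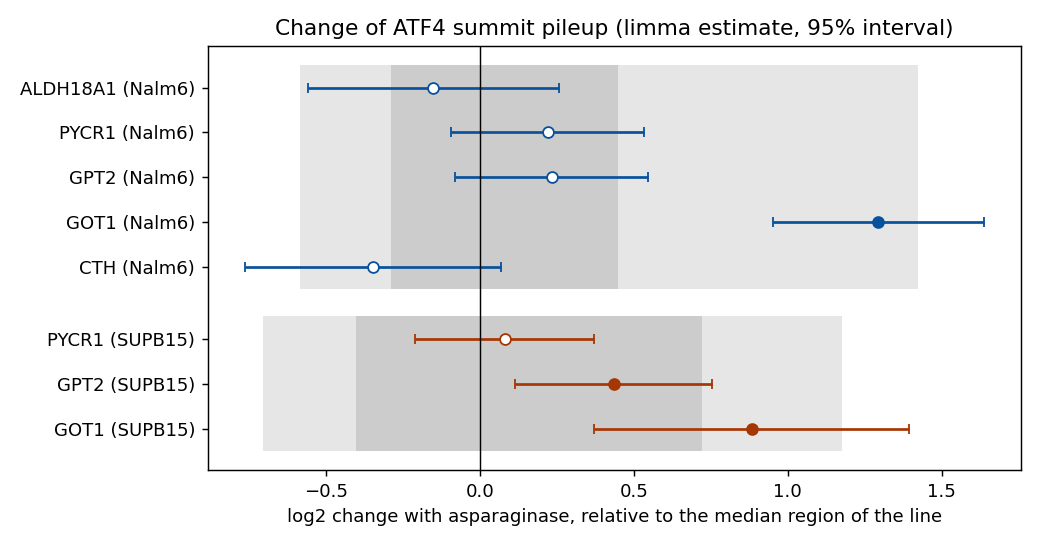
Change of summit pileup with asparaginase at the promoters listed in all 4 libraries of a line (log2, limma estimate with 95% interval), relative to the median region. Filled points passed the adjusted threshold. Dark and light grey bands hold the middle 50% and the middle 90% of all regions of the line, and GOT1 lies above the dark band in both lines but inside the light one.

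Over both lines together, 2 of 3 promoters were called higher, beside 42.2% of the 3812 regions listed in all 8 libraries, and none was called lower, beside 26.0%. Without centring the split over regions was 55.2% higher and 0.0525% lower. The average log2 change was 1.08 ± 0.18 (SE) at GOT1 (limma, adjusted p = 7.64e-09), 0.32 ± 0.10 at GPT2 (adjusted p = 0.00256) and 0.14 ± 0.10 at PYCR1 (adjusted p = 0.175). GPT2 lost this call without Nalm6 asparaginase replicate 1 (adjusted p = 0.0598) or SUPB15 asparaginase replicate 2 (adjusted p = 0.0721), and on the fold enrichment scale its average was -0.36 (adjusted p = 0.00376). On that scale 1 of the 3 was called higher, GOT1 (0.34, adjusted p = 0.00224), and 2 lower, as PYCR1 was at -0.31 (adjusted p = 0.00422), beside 33.2% and 16.9% of regions. On local background all 3 averages were called higher, beside 37.0% of regions higher and 20.2% lower. They were 0.81 at GOT1 (limma, adjusted p = 0.000119), 0.70 at GPT2 (adjusted p = 0.000760) and 0.46 at PYCR1 (adjusted p = 0.00987).

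A difference between the lines was called at none of the 3 promoters (limma interaction), beside 5.43% of regions. SUPB15 minus Nalm6 was -0.29 at GOT1 (95% interval -0.97 to 0.40, adjusted p = 0.849). It was 0.33 at GPT2 (-0.06 to 0.71, adjusted p = 0.521) and -0.01 at PYCR1 (-0.39 to 0.36, adjusted p = 0.988). These intervals still allow differences of the size of the changes themselves. At GPT2 and PYCR1 the untreated Nalm6 summits already held 310 to 351 fragments, those of untreated SUPB15 155 to 239, and no peak of any list passed 400. The rise that Nalm6 could show at these sites was bounded, so the comparison cannot tell whether the lines differ there.

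CTH, the cystathionine gamma-lyase that releases cysteine in the last step of transsulfuration, was among the 2 weakest promoters in both lines, with ALDH18A1. In Nalm6 (chr1:70876109-70877380) its relative pileup was 15.1 and 19.7 without and 15.9 and 19.3 with asparaginase. The treated pileups lie inside the untreated range. The change relative to the median region was -0.35 ± 0.21 (SE; 95% interval -0.77 to 0.07; limma, adjusted p = 0.210), and without centring it was 0.02 (adjusted p = 0.961). Fold enrichment was lower with the drug, at 6.23 and 7.64 without and 4.96 and 6 with it. On that scale the change was -0.48 ± 0.17 (SE; limma, adjusted p = 0.0689), short of the threshold.

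In SUPB15 the CTH promoter peak was near the calling limit. Relative pileup was 4.90 in untreated replicate 1 and 8.35 and 4.84 with asparaginase, and untreated replicate 2 listed no peak. The −log10 q values of the listed peaks were 3.26, 11.4 and 3.22. The untreated value lies between the treated ones, and with a library missing the site had no test. The downstream region (chr1:70877816-70878169 over both lines) was listed in asparaginase replicate 1 of each line only, with relative pileups of 14.9 in Nalm6 and 5.97 in SUPB15. Its summits lay 1052 and 1050 bp past the start site.

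The CTH promoter is shown as the third of the genes in the RefSeq table. It holds no composite element core, and 1 match of TGACGT is in capitals, at -147. It is chr1:70411018-70411267 of GRCh38.p14, plus strand, and its positions, counted from the RefSeq start, are not carried over to the peaks.
CTH: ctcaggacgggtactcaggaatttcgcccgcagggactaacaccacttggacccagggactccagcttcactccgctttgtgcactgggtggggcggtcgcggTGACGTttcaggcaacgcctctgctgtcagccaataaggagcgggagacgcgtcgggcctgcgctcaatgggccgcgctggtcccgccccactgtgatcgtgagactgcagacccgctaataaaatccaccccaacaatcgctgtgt

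In untreated Nalm6 the geometric means were 117 for GPT2, 114 for PYCR1, 26.7 for GOT1, 17.4 for ALDH18A1 and 17.3 for CTH. GPT2 and PYCR1 overlap, as do ALDH18A1 and CTH, while GOT1 lies apart from both pairs. In Nalm6 with asparaginase the means were 177, 171, 84.3, 20.2 and 17.5 in the same order. In untreated SUPB15 they were 55.2 for PYCR1, 44.3 for GPT2 and 21.8 for GOT1, with both PYCR1 values above those of GPT2. With asparaginase SUPB15 had 91.9 for GPT2, 89.6 for PYCR1 and 61.8 for GOT1. Treated GPT2 and PYCR1 summits held 385 to 400 fragments in Nalm6 and 346 to 387 in SUPB15, near the upper end of 400. Genome background was 2.21 and 2.33 in treated Nalm6 and 4.19 and 3.93 in treated SUPB15. The same number of fragments thus gives a lower relative pileup in SUPB15. A difference in level between the lines at these 2 sites cannot be read from the treated means.

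Across the 8 libraries, log2 relative pileups of PYCR1 and GPT2 followed each other (Pearson r = 0.993), and GOT1 followed PYCR1 with r = 0.716 and GPT2 with r = 0.727. These are descriptions over 8 libraries in 4 groups, and depth scaling is shared by all sites of a library. With asparaginase PYCR1 and GPT2 also lay near the upper end of the pileup, which is the same for all sites. The regions most like PYCR1 and GPT2, given next, had highest relative pileups of 167 to 181. How far the upper end made these profiles alike was not tested. Among 3812 regions the profile most like GPT2 was at chr17:77966691-77968153 (r = 0.999, within 0.11 on the log2 scale in every library). Next came chr9:80911355-80912791 and chr8:37887683-37889629 (r = 0.998 and 0.997). For PYCR1 the closest were chr17:36571046-36572407, chr20:20446793-20447896 and chr15:40407709-40408899 (r = 0.999, 0.999 and 0.998). For GOT1 they were chr9:126674577-126675397, chr5:131693427-131694000 and chr2:10471271-10472905 (r = 0.998, 0.998 and 0.997), at lower levels than GOT1 by up to 1.66, 1.51 and 0.69 on the log2 scale. These positions are in hg19, and no gene names were attached to them.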

How the data were processed

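ATF4 peak lists of 8 libraries were used, 1 per library, so peaks were called per sample. BWA, MACS2, DiffBind and the hg19 build are named, without versions, per the submitters' processing notes. The fold (ratio of summit pileup to local background) and the −log10 p and −log10 q values are those the authors deposited.

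In MACS2 output the fold equals pileup plus 1 over background plus 1, with a Poisson p. Each pair was therefore solved for pileup and local background; 100% of the peaks of every list were solved within 0.001 in −log10 p. The lowest background of a list served as its genome background. Whether a control library was used is not stated. Intervals, relative pileups and tests cover these libraries only.

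Peaks sharing at least 1 bp were merged, per line and over all 8 lists. A peak counted for a gene with any base within 5 kb of its start site. Regions listed in all 4 libraries of a line, or in all 8, were fitted with limma 3.58.1 (trend) on log2 relative pileups, centred on the median change; with 2 libraries per group, spread is shared across regions. The inversion, merging and limma fits were tested on simulated data. The strands of PYCR1 and GPT2 are general knowledge; those of the other 3 genes come from RefSeq.

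All 5 genes and every region near them are named, with the 3 regions of highest Pearson correlation for each site listed in all 8 libraries. A planned list of 15 further amino acid genes was not analysed here, since no hg19 start sites were used for them. The genes, lists and tests were chosen with earlier results of these data known.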

Additional observations from a re-analysis of the deposited data

How the results depend on the processing

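Of 158 recomputed log2 changes, over 14 comparisons of a site, 112 kept their direction and their side of the threshold. For the others, and for the counts below, the cause was not tested.

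With −log10 q of at least 10, SUPB15 asparaginase replicate 2 listed 3 of the genes, no region near the 5 genes was gained in SUPB15, and 4573 of all regions were; with at least 5 this was 9702. Equally long lists left 3 genes in each SUPB15 asparaginase list, none gained near them, and 4304 and 2683 gained regions in Nalm6 and SUPB15. Tested only at −log10 q of at least 10 in all 4 libraries, 3619 and 1107 regions were called higher and lower in Nalm6 and 55 and 514 in SUPB15; there GOT1 was at 0.41, GPT2 at -0.039 and PYCR1 at -0.39.

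On the fold enrichment scale 1028, 546 and 646 regions were called lower in Nalm6, SUPB15 and on average, and 45 and 70 higher and lower between lines. GOT1 was at 0.29 in Nalm6 and 0.33 in SUPB15, with a line difference of 0.078. GPT2 was at -0.64, -0.15 and on average -0.36, and PYCR1 at -0.31, -0.38 and -0.31.

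With local background, added after the data had been seen, 3500 and 752 regions were called higher and lower in Nalm6, 4 higher in SUPB15, and 12 and 435 between lines. In Nalm6 CTH was at 0.17, GPT2 at 0.93 and PYCR1 at 0.59; in SUPB15 GOT1 was at 0.55 and GPT2 at 0.55 (adjusted p = 0.271 and 0.233); the PYCR1 average was 0.46 and the GPT2 line difference -0.29. With summit pileups under 300, also added, 496 regions were lower on average and 12 higher between lines.

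Without centring, 9762 and 100 regions were called higher and lower in Nalm6, 2334 and 4 in SUPB15, 2 lower on average and 29 higher between lines. In Nalm6 CTH was at 0.018, ALDH18A1 at 0.21, GPT2 at 0.60 and PYCR1 at 0.59. PYCR1 was at 0.70 in SUPB15, 0.64 on average and 0.11 between lines. Without the trend GPT2 in SUPB15 stayed at 0.43 but was not called.

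The replicate numbers do not show a pairing (correlation of same-numbered deviations 0.03 in Nalm6 and 0.09 in SUPB15). With a replicate block 3604 regions were lower in Nalm6, 1634 higher and 707 lower in SUPB15, and 52 and 359 differed between lines; no call at the 5 promoters changed.

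Without single libraries, gained regions near the genes were 0 to 1 in Nalm6 and 1 to 2 in SUPB15, and all gained regions 8609 to 14580 and 19227 to 77088. Calls lower in Nalm6 were 583 to 1552, calls in SUPB15 0 to 1063 higher and 0 to 596 lower, calls lower on average 577 to 1148, and calls between lines 1 to 50 and 77 to 318. Changes were -0.34 to 0.022 at ALDH18A1, 0.14 to 0.31 at GPT2 and 0.14 to 0.29 at PYCR1 in Nalm6. In SUPB15 they were 0.81 to 0.91 at GOT1, 0.27 to 0.54 at GPT2 and -0.075 to 0.17 at PYCR1. The GPT2 average was 0.23 to 0.39 and the PYCR1 line difference -0.19 to 0.11.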
